A study of Drosophila melanogaster with 12 samples.

Results

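The comparison set the heads of male flies on day 14, after 4 days on normal food that followed an antiepileptic drug, against heads on day 10, at the end of that drug. It rested on 8 of the 12 arrays of the study, 4 for each day, and it took in every annotated gene that could be tested. All 8 arrays were chosen by their labels, without use of any measured value. Each array held 2 colours: RNA from heads of treated Oregon-R wild type males in one dye and RNA from heads of untreated males of the same parallel set in the other.

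The day-14 flies were unmated males, 3 to 4 days old at the start. Their food held pentylenetetrazole (PTZ) at 8 mg/ml for 7 days, then ethosuximide (ETH) at 3.48 mg/ml for 3 days, and was then normal for 4 days. The day-10 flies were the same kind of males on the same PTZ and ETH food, harvested when ETH ended. Both groups had therefore had both drugs, and the untreated flies of either day had normal food throughout. Vials started with 30 flies, and RNA came from pools of whole heads, so that no value is that of a single fly or a single cell type. In such pools, fewer cells of a type and less RNA per cell cannot be told apart. Each day had 4 biological replicates, 1 array each, according to the design text. In 2 of them, replicates 3 and 4, the dyes were swapped, with the treated RNA in Cy3. Another group of 4 arrays came from males that went from PTZ to normal food for 7 days without ETH, harvested on day 14. It entered here only as a description, for a few genes, and in 1 alternative. The day-14 groups with and without ETH were not compared.

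PTZ is a convulsant that blocks the chloride channels opened by the inhibitory transmitter GABA, and ETH is a drug against absence seizures that acts on low-threshold calcium channels. In flies, foreign compounds in food are known to raise the transcription of enzymes that oxidise, reduce, hydrolyse or conjugate them, among them cytochrome P450s, short-chain dehydrogenases, epoxide hydrolases, glutathione S-transferases and UDP-glycosyltransferases. The fat body of the head, which lies around the brain, secretes storage proteins and lipid carriers and expresses many such enzymes, and glia form the blood-brain barrier of flies.

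All values are log2 ratios of treated over untreated RNA on the same array, corrected for array median and print block. Some dependence on position remained. After block correction, neighbouring probes still correlated at 0.22 to 0.41 on day-14 arrays and at 0.25 to 0.49 on day-10 arrays. With row and column correction, used here only as an alternative, these were -0.011 to 0.065 and 0.020 to 0.064. A difference is the fitted day-14 mean minus the fitted day-10 mean. It departs from that of the plain means where an array lacks a value. A ratio near 0 means like signals in treated and untreated heads of that day. A difference of ratios does not say which channel moved between the days: a change in treated heads and an opposite change in the untreated heads of the same day cannot be told apart. The sources give the dye of each sample but not which channel was divided by which. Cy5 over Cy3 was taken as the ratio on every array, and the swapped arrays were turned in sign. This reading is an assumption, and many differences moved or turned in sign with the swaps not turned; those values are given beside the called probes, the genes with the smallest p and the list medians.

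Of the 13824 probes, 4451 had at least 3 values on both days and were tested; 2658 of these carried 1 listed gene, 14 several and 1779 none. They covered 2511 of the 6793 genes on the array. The day-14 arrays held values for 5077 to 7399 probes and the day-10 arrays for 9106 to 10433, so that 5028 probes had 3 or more values at day 10 but too few at day 14, and 684 the reverse. Ratios also spread less at day 14: the SD over probes was 0.26 to 0.33 log2 on day-14 arrays and 0.40 to 0.53 on day-10 arrays. The median SD of a probe over the arrays of a day, of both dye orientations, was 0.21 at day 14 and 0.33 at day 10. The lower SD was at day 14 for 70.7% of tested probes. Turned arrays of the same dye orientation correlated across probes at 0.30 and 0.39 at day 14 and at 0.34 and 0.41 at day 10. Arrays of opposite orientation correlated at -0.33 to 0.0024 at day 14 and at -0.37 to -0.17 at day 10.

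Over the tested probes the 2 days differed little beyond the spread among the arrays of a day. That spread holds differences between dye orientations as well as between replicates, since 1 dye term common to both days was fitted. The median difference over the 4451 probes was -0.0072 log2, the quartiles of the differences were -0.13 and 0.12, and the median SE of a difference was 0.20. By limma with Benjamini-Hochberg adjustment over all tested probes, 3 passed the threshold of 0.05, which is 0.0674% of those tested, all of them lower at day 14. None passed as higher. At an unadjusted limma p under 0.05 stood 179 probes (4.02%), fewer than the 222.55 that this threshold would give if no probe differed. This share depends on the dye reading, and was 23.5% with the swaps not turned. Of the 179 probes 82 were lower (1.84%) and 97 higher (2.18%) at day 14. Differences past 1 log2 in size were found for 7 probes upward and 9 downward.

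The gene that passed was CG9360, a member of the short-chain dehydrogenase family, whose enzymes oxidise alcohols or reduce carbonyl groups. Its ratios were -0.00025, -0.30, 0.061 and -0.22 at day 14, against 0.81, 1.20, 1.53 and 1.51 at day 10. The 4 day-14 ratios lay around 0 and the 4 day-10 ratios were all high, with a gap between the days. Such a gap, with every day-14 array below every day-10 array, was found for 73 probes (1.64% of those tested), and the reverse for 67 (1.51%). Of the 2348 probes with all 8 values, 50 (2.13%) had a gap in either direction. The mean was -0.11 ± 0.17 at day 14 and 1.26 ± 0.34 at day 10 (SD, n = 4 each), a difference of -1.38 (SE 0.18, limma adjusted p = 0.0154). In flies without ETH at day 14 the mean was -0.16 ± 0.27 (SD, n = 4), which is also near 0. The difference was -1.16 on the arrays with treated RNA in Cy5 and -1.60 on the dye swaps, each 2 arrays against 2. With the swaps not turned it was 0.22, and no longer passed. The call was also lost without day-14 replicate 2, 3 or 4 (limma adjusted p = 0.0766, 0.140 and 0.143) and without day-10 replicate 2 or 4 (0.106 and 0.0830), where no probe passed at all. It was lost with row and column correction (adjusted p = 0.136) and after scaling the arrays to one spread (0.173), while the difference stayed between -1.52 and -1.16 in every alternative with the swaps turned.

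The other 2 probes that passed have no listed gene and were singled out after their values were seen. The first read 0, -0.17, 0.0020 and -0.28 at day 14, against 0.76, 1.37, 1.40 and 1.55 at day 10. Its difference was -1.38 (SE 0.19, limma adjusted p = 0.0154), close to that of CG9360 in size and on each array. In flies without ETH at day 14 its mean was -0.0825 ± 0.42 (SD, n = 4). The second read -0.11, 0.066, -0.70 and -0.82 at day 14, against 1.58, 1.73 and 0.12 on replicates 1, 2 and 3 at day 10. Its groups did not overlap either, and its difference was -1.36 (SE 0.21, limma adjusted p = 0.0494). Without ETH its day-14 mean was -0.55 ± 1.03 (SD, n = 3), a wide spread. Day-10 replicate 3, the only dye swap of that day with a value, was low for this probe. The day-14 swaps also lay below the Cy5 arrays of that day. The difference of this probe was -1.68 on the Cy5 arrays and -0.87 on the dye swaps. It passed in 7 of 21 alternatives. The first passed in 13 of 22 and, with the swaps not turned, stood at 0.23, and the second at -0.66.

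**Figure D1:**
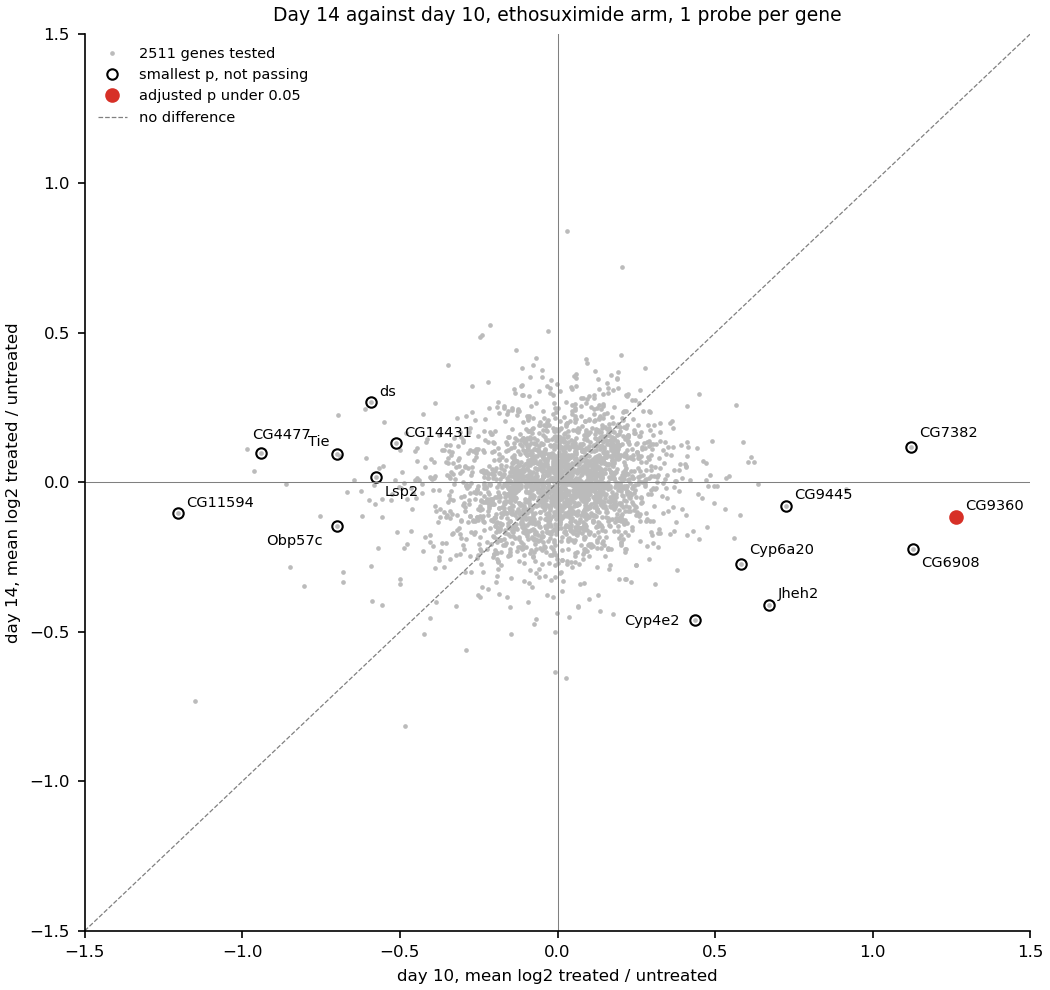
Mean log2 ratio at day 10 (horizontal axis) and at day 14 (vertical axis) for 1 probe of each of the 2511 tested genes. Circles mark the genes with the smallest p in each direction whose named probe is the one drawn. The filled point marks CG9360, at 1.26 on day 10 and -0.11 on day 14. The marked genes lie away from 0 along the day-10 axis and nearer to 0 along the day-14 axis. They were chosen for a small p, and ratios spread more at day 10, so this layout follows in part from the choice.

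The next genes on the lower side did not pass the test, and on average all stood above 0 at day 10 and near or below 0 at day 14. They were chosen for a small p, and ratios spread more at day 10, so this layout follows in part from the choice. Jheh2, CG6908, CG7382, CG9445 and CG2065, like CG9360, had also stood out at day 10 in an earlier treatment of these arrays. Jheh2 (CG15102), which encodes an epoxide hydrolase that degrades juvenile hormone, was measured by a pair of probes. The probe with the smaller p read -0.46, 0.061, -0.030 and -0.18 at day 14, against 0.90, 1.32, 0.75 and 0.89 at day 10. The groups were well apart, with a difference of -1.12 (SE 0.19) that just missed the threshold (limma adjusted p = 0.0541). The other probe read -0.38, 0.035, -0.58 and -0.71 at day 14, against 0.42, 1.36, 0.45 and 0.46 at day 10, where replicate 2 was far above the other 3. Its difference was of like size, -1.08 (SE 0.21, adjusted p = 0.164). With row and column correction this second probe gave -0.15 and the first -0.69.

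CG6908 had the lowest fitted difference of all tested genes, -1.39 (SE 0.29, adjusted p = 0.259), but rested on 3 arrays a day, and its plain means were -0.22 at day 14 and 1.13 at day 10. It read -0.68, 0.076 and -0.064 on replicates 2, 3 and 4 at day 14, against 0.94, 1.60 and 0.85 on replicates 1, 2 and 4 at day 10. The values of both days spread widely and still left a gap. CG7382 read 0.36, -0.14 and 0.13 on replicates 1, 2 and 3 at day 14, against 1.31, 1.51, 0.98 and 0.68 at day 10, a difference of -1.06 (SE 0.22, adjusted p = 0.213). A second probe of CG7382 had 2 values at day 14 and was not tested; its means were 0.082 at day 14 and 0.21 at day 10. CG9445 read -0.013, 0.54, -0.37 and -0.46 at day 14, against 1.05, 1.09, 0 and 0.76 at day 10. The days overlapped for this gene, because day-10 replicate 3 was near 0 and day-14 replicate 2 was well above it, and its difference of -0.80 (SE 0.20) had an adjusted p of 0.420. CG2065, another short-chain dehydrogenase gene, read -0.20, 0.28 and -0.15 on replicates 2, 3 and 4 at day 14, against 0.68, 1.16, 0.55 and 1.27 at day 10, with no overlap and a difference of -0.95 (SE 0.24, adjusted p = 0.420).

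The differences of these genes were smaller in size or of the other sign when the swaps were not turned. This follows in part from the choice, since a small p favours genes with like differences in both dye orientations. The first Jheh2 probe stood at -0.19 and the second at 0.016, CG6908 at -0.55, CG7382 at -0.50, CG9445 at -0.0057 and CG2065 at 0.061.

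**Figure D2:**
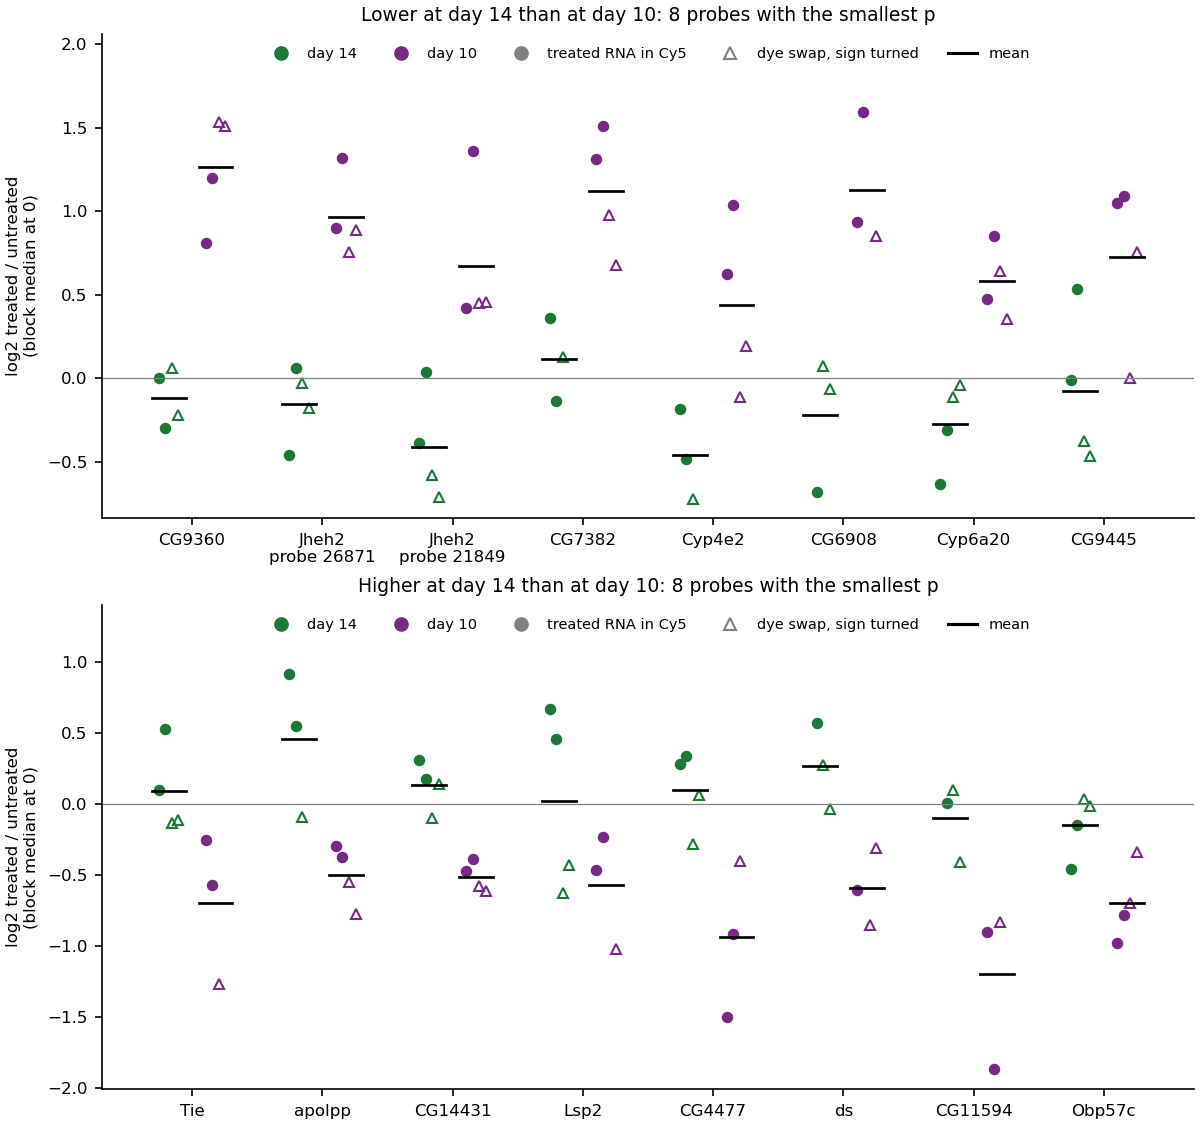
Log2 ratio of treated over untreated RNA on each array for the genes with the smallest p in each direction, with day-14 arrays to the left of day-10 arrays. Horizontal bars are means, circles are arrays with treated RNA in Cy5 and triangles are dye swaps with the sign turned; for CG9360 the day-14 arrays lie between -0.30 and 0.061 and the day-10 arrays between 0.81 and 1.53.

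No gene passed on the higher side. Those with the smallest p had ratios below 0 at day 10 and nearer to 0, or above it, at day 14. As on the lower side, this layout follows in part from the choice, since ratios spread more at day 10. Tie, which encodes a receptor tyrosine kinase, read 0.10, 0.53, -0.14 and -0.12 at day 14, against -0.25, -0.57 and -1.27 on replicates 1, 2 and 3 at day 10. The days did not overlap, and the difference was 0.89 (SE 0.20, limma adjusted p = 0.314). The gene apolpp (CG11064) encodes the precursor of apolipophorin, the main lipid carrier of the haemolymph, made in fat body. One probe of apolpp read 0.91, 0.55 and -0.10 on replicates 1, 2 and 3 at day 14, against -0.29, -0.38, -0.55 and -0.78 at day 10, a difference of 0.87 (SE 0.20, adjusted p = 0.334). The day-14 values of that probe were high with treated RNA in Cy5 and below 0 on the swap. A second apolpp probe showed the same split at day 14, with 1.35, 0.40 and -0.23 on replicates 1, 2 and 4, against 0.085, 0.32, -0.45 and -0.078 at day 10, and its days overlapped (difference 0.42, SE 0.26).

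Lsp2, a storage protein gene of the fat body, read 0.67, 0.46, -0.63 and -0.43 at day 14, against -0.47, -0.23 and -1.03 on replicates 1, 2 and 4 at day 10. As for apolpp, the Cy5 arrays were above 0 and the swaps below it at day 14, and the days overlapped. Its difference was 0.75 (SE 0.19, adjusted p = 0.499). CG14431 had tight values on both days, 0.31, 0.17, -0.10 and 0.14 at day 14, against -0.48, -0.39, -0.58 and -0.61 at day 10. Here every day-14 array lay above every day-10 array, by 0.64 on average (SE 0.16, adjusted p = 0.420). The cadherin gene ds (dachsous), which acts in planar polarity and growth, read 0.57, 0.27 and -0.039 on replicates 2, 3 and 4 at day 14, against -0.61, -0.86 and -0.31 on replicates 1, 3 and 4 at day 10, a difference of 0.86 (SE 0.23, adjusted p = 0.599) on 3 arrays a day.

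CG4477 read 0.28, 0.34, -0.29 and 0.061 at day 14, against -1.51, -0.91 and -0.41 on replicates 1, 2 and 3 at day 10. The days were apart by 1.03 (SE 0.27, adjusted p = 0.499), with a much larger gap on the Cy5 arrays, 1.52, than on the dye swaps, 0.29. CG11594 read 0.0075, 0.10 and -0.41 on replicates 2, 3 and 4 at day 14, against -0.90, -1.87 and -0.83 on replicates 1, 2 and 3 at day 10, a difference of 1.04 (SE 0.31, adjusted p = 0.847). Besides these 2 genes, the seminal fluid protein gene Acp32CD was the only gene past 1 log2 upward, at 1.09 (SE 0.41, unadjusted p = 0.0190); its day-10 ratios ranged from a low of -2.48 up to 0.0855, and the gene was singled out after its values were seen. Downward the genes past 1 log2 were CG6908, CG9360, Jheh2, CG7382 and Cyp4e2. With the swaps not turned Tie stood at -0.024, ds at -0.074, the first apolpp probe at 0.41, Lsp2 at 0.35 and CG14431 at 0.030. CG4477 then stood at 0.79, CG11594 at 0.36 and Acp32CD at 0.34. As on the lower side, such smaller values follow in part from the choice.

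CG9360, Jheh2, CG6908, CG7382, CG9445, CG2065 and CG4477 had stood out at day 10 in an earlier treatment of these arrays. Their day-10 ratios were thus known beforehand. Other genes that stood out there were followed here as a description, since that choice used the day-10 values. Cyp6a8, a P450 gene known to be induced by foreign compounds, had by one probe the highest day-10 ratios of them, 1.69, 2.40, 1.52 and 1.82, but no value on any day-14 array by this probe. A second Cyp6a8 probe had 1 value at day 14, 0.35 on replicate 4, and 1.61 and 2.54 on day-10 replicates 1 and 2. Another had no day-14 value and read -0.25, 1.44, 0.20 and 1.24 at day 10, lower than the first on every array and below 0 on replicate 1. The mitochondrial P450 gene Cyp12d1-d read 0.018 and 0.23 on replicates 3 and 4 at day 14, against 0.77, 1.27, 0.42 and 0.92 at day 10. The odorant-binding protein gene Obp99b read 0.23 and -0.27 on replicates 1 and 3 at day 14, against -1.40, -1.41 and -1.29 on replicates 1, 2 and 4 at day 10. Both had 2 day-14 values, nearer to 0 than any of their day-10 values, and were not tested for want of more values. A second Obp99b probe, with no day-14 value, averaged -0.60 at day 10. CG14402 had no day-14 value either, and its day-10 ratios were -0.89, -0.45 and -2.58 on replicates 1, 2 and 4.

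The genes of that set that were low at day 10 and could be tested did not pass. Cyp313a1 was below 0 on every array, at -0.67, -0.24, -1.02 and -1.01 at day 14, against -0.78, -0.87 and -1.80 on replicates 1, 2 and 3 at day 10. Its days overlapped, with a difference of 0.54 (SE 0.20, limma adjusted p = 1.00), so that it stayed on the low side of untreated flies on both days. The mean was -0.73 ± 0.37 at day 14 (SD, n = 4) and -1.15 ± 0.57 at day 10 (SD, n = 3), and in day-14 flies without ETH it was -0.63 ± 0.48 (SD, n = 4). Jhbp13 and Jhbp14, which belong to the juvenile hormone binding protein family, averaged -0.35 and -0.30 at day 14, against -0.80 and -0.68 at day 10. Their differences of 0.40 (SE 0.22) and 0.48 (SE 0.29) were within the replicate spread, and a second probe of Jhbp14 had means of 0.079 at day 14 and 0.047 at day 10.

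The gene lists that follow were chosen with earlier results known and are described by counts and medians, with 1 probe per gene. Over all 2511 genes, 1155 differences were above 0 and 1356 below, with a median of -0.020, and 100 genes (3.98%) had an unadjusted p under 0.05, 55 higher and 45 lower. One gene, CG9360, passed the adjusted threshold (0.0398%). The other dye reading, with the swaps not turned, put 1307 differences above 0, with a median of 0.021.

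Cytochrome P450 genes, which encode haem enzymes that oxidise foreign and endogenous compounds, were 70 on the array and 22 tested. As many lay above 0 as below, 11 each, with a median difference of -0.0039, and none passed. Again 11 were above 0 with the swaps not turned, and the median was -0.025. Unadjusted p was under 0.05 for 8 of the 22, 6 lower and 2 higher at day 14, beside 3.98% of all genes. Cyp4e2 read -0.18, -0.48 and -0.72 on replicates 1, 2 and 3 at day 14, against 0.62, 1.04, -0.11 and 0.20 at day 10, with no overlap and a difference of -1.003 (SE 0.21, limma adjusted p = 0.213). Cyp6a20, known in flies for its effect on male aggression, read -0.64, -0.31, -0.11 and -0.041 at day 14, against 0.48, 0.85, 0.64 and 0.35 at day 10. All its day-14 values were below 0 and all its day-10 values above, a difference of -0.85 (SE 0.19, adjusted p = 0.259). A second Cyp6a20 probe had no day-14 value and averaged 0.067 at day 10. With the swaps not turned Cyp4e2 stood at -0.39 and Cyp6a20 at -0.28.

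The other P450 genes with an unadjusted p under 0.05 were named after their values were seen. Cyp6d5 read 0.061, -0.20, -0.19 and -0.10 at day 14, against 0.43, 1.05, 0.14 and 0.69 at day 10, without overlap (difference -0.69, SE 0.20). Cyp4p1, Cyp9f2 and Cyp4ad1 stood at -0.54 (SE 0.19), -0.63 (SE 0.28) and -0.48 (SE 0.22), and their days overlapped. A second probe of Cyp4p1, with 2 day-14 values, had means of -0.32 at day 14 and 0.35 at day 10. On the higher side stood Cyp313a1 and Cyp4d21, a gene of male head fat body also called sxe1, at 0.57 (SE 0.24). Both were below 0 on average on both days; Cyp4d21 averaged -0.28 at day 14 and -0.85 at day 10. The remaining 14 P450 genes lay between -0.21 and 0.44, with unadjusted p of 0.078 or more. With dye swaps not turned, the signs of Cyp4p1, Cyp4ad1, Cyp4d21 and Cyp313a1 were reversed, Cyp6d5 stood at -0.12 and Cyp9f2 at -0.46. A second probe of Cyp9f2, with no day-14 value, averaged -0.29 at day 10.

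**Figure D3:**
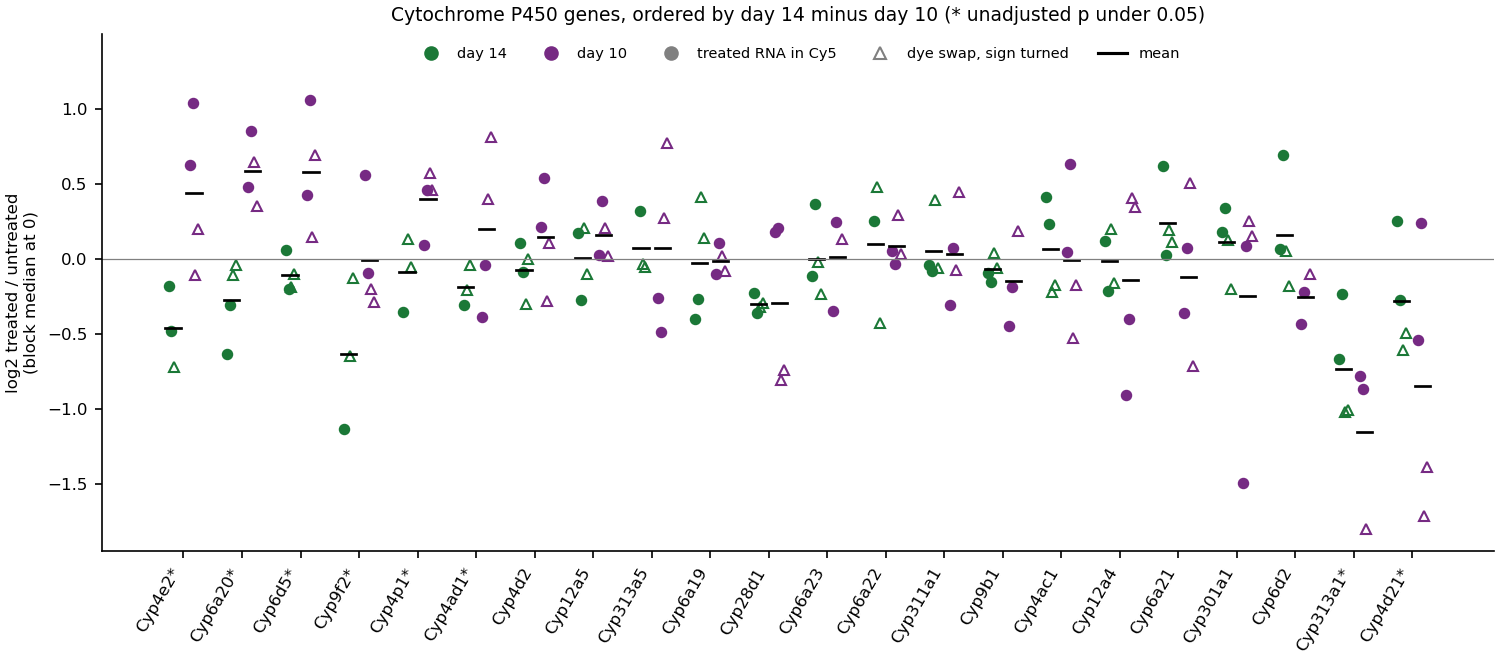
Log2 ratio of treated over untreated RNA on each array for the 22 tested cytochrome P450 genes, with day-14 arrays to the left of day-10 arrays, means as bars, Cy5 arrays as circles and dye swaps as triangles. The day-10 values spread over a wider range than the day-14 values, and Cyp6a20 has all day-14 arrays between -0.64 and -0.041 and all day-10 arrays between 0.35 and 0.85.

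Of the conjugating enzymes, glutathione S-transferases, which join glutathione to reactive compounds, were below 0 in 5 of 8 tested genes of 23 on the array, with a median difference of -0.30. GstE3 read -0.31, 0.20, -0.23 and -0.31 at day 14, against 0.80, 0.19 and 0.30 on replicates 2, 3 and 4 at day 10, a difference of -0.65 (SE 0.20, unadjusted p = 0.00659, limma adjusted p = 0.875). GstD1, GstD9 and GstD4 stood at -0.57, -0.45 and -0.34, none with an unadjusted p under 0.05. GstD1 stood at -0.044 on the Cy5 arrays and -1.09 on the dye swaps, and with the swaps not turned it stood at 0.52, GstE3 at -0.033 and the list's median at 0.057, with 5 of 8 above 0. UDP-glycosyltransferases, which add sugars to small molecules, were above 0 in all 5 tested genes of 12, with a median of 0.12 and no unadjusted p under 0.05; with the swaps not turned all 5 were again above 0 and the median was 0.56. The first 2 were Ugt37E1 at 0.48 (SE 0.27) and Ugt301D1 at 0.19 (SE 0.24); Ugt37E1 turned to -0.077 without day-14 replicate 2.

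Among short-chain dehydrogenases, 10 of 17 tested genes (27 on the array) were above 0 and the median was 0.032, against 10 and 0.086 with the swaps not turned. CG9360 and CG2065 were the lowest of the list. The other with an unadjusted p under 0.05 was higher: scu, a mitochondrial dehydrogenase of fatty acid and steroid substrates, read 0.57, 0.59, 0.0088 and 0.12 at day 14, against -0.60, -0.091 and -0.13 on replicates 1, 2 and 4 at day 10 (difference 0.63, SE 0.22, unadjusted p = 0.0138). Pdh, Adh and Antdh, of the same list, lay at -0.29, -0.0062 and -0.053. In the list on juvenile hormone hydrolysis and binding, 4 of 10 genes were tested, and the binding proteins Jhbp1, Jhbp13 and Jhbp14 lay at 0.40 to 0.48 beside Jheh2 at -1.08.

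**Figure D4:**
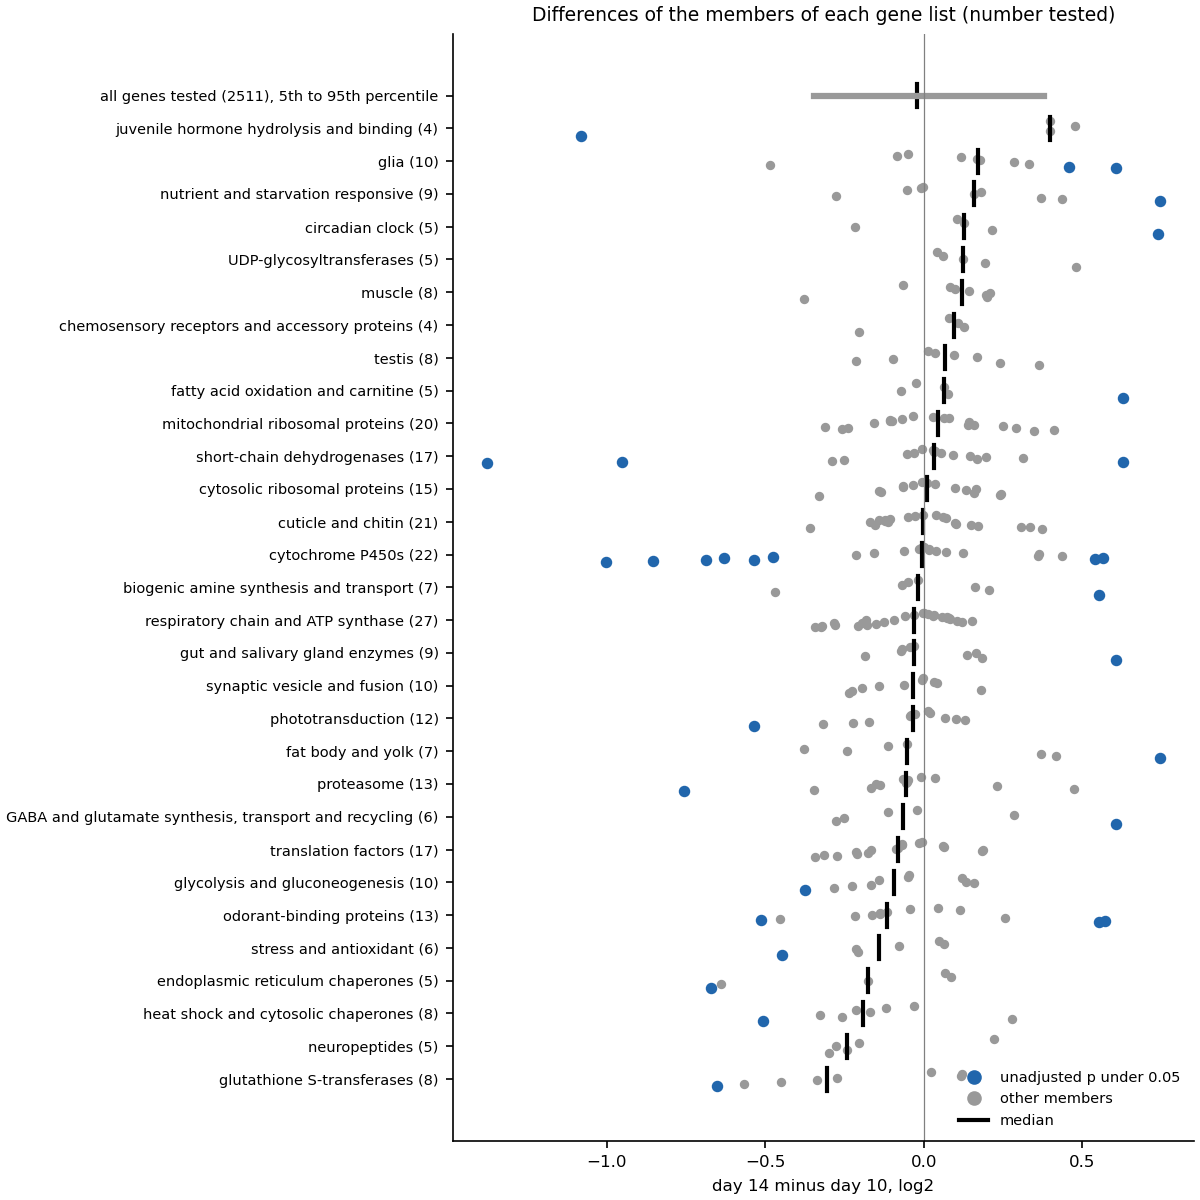
Day-14 minus day-10 difference of log2 ratios for each tested gene of the lists, 1 point per gene, for lists with at least 4 tested genes; black bars are list medians, and blue points have an unadjusted p under 0.05. The list medians lie between -0.30 for glutathione S-transferases and 0.40 for juvenile hormone hydrolysis and binding, and CG9360 is the only gene past the adjusted threshold. With dye swaps not turned the medians of these lists run from -0.30 for fatty acid oxidation to 0.56 for UDP-glycosyltransferases, and glutathione S-transferases stand at 0.057.

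Chemosensory genes were measured in part. Of 19 odorant-binding protein genes 13 were tested, 8 of them below 0, with a median of -0.12, and 3 had an unadjusted p under 0.05. Of the 13, 7 were above 0 with the swaps not turned, and the median was 0.023. Obp57c read -0.46, -0.15, 0.035 and -0.015 at day 14, against -0.98, -0.78, -0.70 and -0.34 at day 10. It was below 0 on 7 of 8 arrays, less so at day 14, and the days overlapped by 1 array (difference 0.55, SE 0.17, limma adjusted p = 0.847). Obp19d stood at 0.57 (SE 0.20), with -0.75, 0.061, -0.82 and -0.82 at day 10, so that replicate 2 differed from the other 3; a second probe of this gene gave 0.21 (SE 0.23). Obp19c, named after its values were seen, stood at -0.51 (SE 0.22), with -0.72 (SE 0.40) by its second probe. The receptor genes Or33a and Gr61a lay within their spread at -0.20 (SE 0.20) and 0.13 (SE 0.21).

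Heat shock and cytosolic chaperone genes were below 0 in 7 of 8 tested genes, with a median of -0.19, and with dye swaps not turned 4 of 8 were above 0, with a median of 0.044. DnaJ-1, a cochaperone of Hsp70, read 0.018, -0.52, -0.56 and -0.45 at day 14, against 0.21, 0.060, 0.48 and -0.23 at day 10 (difference -0.51, SE 0.20, unadjusted p = 0.0253). Other DnaJ-1 probes had values on 1 day only and could not be tested: 3 with 3 or 4 day-14 values averaged 0.040, 0.14 and 0.093 at day 14, above the -0.38 of the probe shown, 2 had 1 day-14 value each, 0.60 and -1.805, and 1 averaged -0.13 at day 10. Hsp68 and Hsp26 lay at -0.33 and -0.21, and the chaperonin gene CCT1, the 1 member above 0, at 0.28. Proteasome genes were below 0 in 10 of 13, with a median of -0.056 beside -0.020 for all genes, and with dye swaps not turned 5 were above 0, with a median of -0.067. Rpn2, a scaffold subunit of the regulatory particle, was lowest: it read -0.52, 0.029, -0.27 and 0.019 at day 14, against 0.40, 0.73 and 0.55 on replicates 1, 2 and 4 at day 10, without overlap (difference -0.76, SE 0.21, limma adjusted p = 0.599), while the next lowest, Prosbeta7, a subunit of the core particle, stood at -0.35 (SE 0.19).

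Endoplasmic reticulum chaperone genes were below 0 in 3 of 5, with a median of -0.18, and with dye swaps not turned 1 was above 0, with a median of -0.27. The calnexin gene Cnx99A, needed for rhodopsin folding, gave -0.67 (SE 0.21, unadjusted p = 0.00795) by one probe and 0.24 (SE 0.17) by the other, so the probes differed in sign. The oxidase gene Ero1L stood at -0.64 (SE 0.32) and differed between orientations, with -1.52 on the Cy5 arrays and 0.24 on the dye swaps. Among stress genes, ref(2)P, which encodes the p62 receptor of autophagy, stood at -0.45 (SE 0.20, unadjusted p = 0.0458), with 0.028 on the Cy5 arrays and -0.93 on the dye swaps. Prx3, a mitochondrial peroxiredoxin gene, stood at -0.21 (SE 0.17).

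Cytosolic ribosomal protein genes had a median of 0.0098 over 15 tested genes, mitochondrial ones 0.045 over 20, respiratory chain and ATP synthase genes -0.030 over 27, and no gene of these lists had an unadjusted p under 0.05. The lowest and highest were ATPsynE at -0.34 (SE 0.20) and mRpL2 at 0.41 (SE 0.24). RpL23, RpL29, mRpS17 and ND-20, a complex I subunit gene, stood at -0.33, 0.24, 0.35 and -0.32. The medians of the 3 lists with the swaps not turned were 0.25 for cytosolic ribosomal proteins with 11 of 15 above 0, 0.053 for mitochondrial ones with 12 of 20, and 0.098 for the respiratory chain with 17 of 27. Translation factors were below 0 in 13 of 17 genes with a median of -0.082, and with dye swaps not turned 10 of 17 were above 0, with a median of 0.15. Among them eIF4E3, a cap-binding factor gene, stood at -0.34 (SE 0.20) and the release factor gene eRF3 at -0.27 (SE 0.22). Of 10 glycolysis and gluconeogenesis genes 7 were below 0, with a median of -0.094, and with dye swaps not turned 5 were above 0, with a median of -0.0056. Pgi, which encodes glucose-6-phosphate isomerase, read -0.21, 0.11, -0.58 and -0.78 at day 14, against 0.12, 0.28, -0.20 and -0.14 at day 10 (difference -0.38, SE 0.17, unadjusted p = 0.0432). It averaged -0.36 at day 14 and 0.013 at day 10, and -0.50 in day-14 flies without ETH. Not every named gene was so alike with and without ETH at day 14. The first apolpp probe averaged 0.45 with ETH and -0.14 without, and 5-HT2A 0.41 and 0.020. The gluconeogenic gene fbp stood at -0.28 (SE 0.18). The 5 tested genes of fatty acid oxidation had a median of 0.063, with the thiolase gene yip2 at 0.078 (SE 0.20), and the 9 nutrient-responsive genes one of 0.16, with sug, a transcription factor gene of sugar response, at 0.44 (SE 0.26). The medians of these 2 lists with the swaps not turned were -0.30 and -0.020.

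None of the 10 tested synaptic vesicle and fusion genes had an unadjusted p under 0.05, and they lay between -0.24 and 0.18, with the synaptobrevin gene Syb at -0.24 and Rab3 at -0.23. Of 5 neuropeptide genes 4 were below 0, AstC at -0.30 (SE 0.22), Ilp2 at -0.28, Pdf at -0.24 (SE 0.19) and Mip at -0.20, all within the spread. The synaptic list had a median of -0.072 with the swaps not turned, and the neuropeptide list one of -0.11. In GABA and glutamate synthesis, transport and recycling, the glial GABA transporter gene Gat read -0.17, 0 and 0.33 on replicates 1, 2 and 4 at day 14, against -1.06, -0.50 and -0.10 on replicates 1, 2 and 3 at day 10. The days overlapped for this gene (difference 0.61, SE 0.22, unadjusted p = 0.0186, limma adjusted p = 1.00). The glutamate decarboxylase gene Gad1, the glutamate transporter gene Eaat2 and the glutamine synthetase genes Gs1 and Gs2 lay at -0.25, -0.28, -0.11 and 0.29, each with an unadjusted p above 0.05. Genes for the channels that the drugs act on were tested in small part: 1 of 4 ligand-gated chloride channel genes was tested, GluClalpha at -0.029 (SE 0.22), and none of 4 calcium channel genes.

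The serotonin receptor gene 5-HT2A read 0.53, 0.31 and 0.40 on replicates 1, 3 and 4 at day 14, against 0.045, 0.41, -0.40 and -0.33 at day 10 (difference 0.55, SE 0.19, unadjusted p = 0.0142), and -0.31 with dye swaps not turned. The gene t (tan), which encodes a hydrolase that recycles histamine and dopamine conjugates, stood at -0.47 (SE 0.24). Among clock genes, Pdp1, which encodes a transcription factor that activates Clk, stood at 0.74 (SE 0.34, unadjusted p = 0.0454), with 1.72 on day-14 replicate 1 against at most 0.28 on the other 3 arrays of that day. The clock genes per, cry and jet lay at 0.10, 0.13 and 0.21.

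Marker lists of cell types and tissues were set beside these results. Some, such as the testis and gut enzyme lists, are of tissues outside the head. Phototransduction genes, markers of photoreceptors, were tested for 12 of 14 genes, with 7 below 0 and a median of -0.033, and with dye swaps not turned 4 were above 0, with a median of -0.13. Of these inaC, the eye protein kinase C gene, was lowest at -0.53 (SE 0.19, unadjusted p = 0.0136), with -0.69, -0.12, -0.40 and -0.079 at day 14, against 0.14, 0.43, 0.17 and 0.12 at day 10, while chp stood at -0.32 and trp, trpl, inaD, Arr1 and rdgA lay between -0.22 and 0.10. Glia genes lay above 0 in 7 of 10 tested genes of 20 on the array, with a median of 0.17. With dye swaps not turned the count and median were the same, but not the genes. Nrg moved from 0.12 to -0.16 and alrm from 0.18 to -0.055, while moody moved from -0.084 to 0.68 and Miox from -0.048 to 0.14. Behind Gat came Tret1-1, a trehalose transporter gene of the blood-brain barrier, with 0.080, 0.11, -0.37 and 0.23 at day 14, against -0.57, -0.55, -0.45 and -0.20 at day 10 (difference 0.46, SE 0.19, unadjusted p = 0.0287). The glial genes Inx2, Gs2, alrm and Gli lay at 0.33, 0.29, 0.18 and 0.17, and the engulfment receptor gene drpr at -0.49.

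Fat body and yolk genes were below 0 in 4 of 7 tested genes, with a median of -0.052 beside Lsp2 at 0.75. The lipid gene FASN1 lay at -0.38 and Apoltp at -0.24. Muscle genes were above 0 in 6 of 8, with a median of 0.12; Act88F stood at 0.20 (SE 0.16) and TpnC73F at -0.38 (SE 0.28). Fat body and yolk genes were above 0 in 4 of 7 with the swaps not turned, with a median of 0.20, and muscle genes in 6 of 8, with 0.18. Gut and salivary gland enzyme genes had 4 of 9 above 0 and a median of -0.030, with the maltase gene Mal-B2 at 0.61 (SE 0.22, unadjusted p = 0.0179) and Mal-A2 at 0.18. Of the 9, 7 were above 0 with the swaps not turned, with a median of 0.17. Testis genes had 6 of 8 above 0 and a median of 0.066, with betaNACtes6 at 0.36 and boly at 0.24, but 2 of 8 and a median of -0.15 with the swaps not turned. Cuticle and chitin genes had 10 of 21 above 0 and a median of -0.00053, but 15 of 21 and 0.27 with the swaps not turned. With the swaps turned, Cpr97Eb stood at 0.37 and Vajk3 at -0.36 by one probe and 0.043 and 0.089 by 2 others, and blood cell and immune lists had 2 tested genes each. No marker list held a gene that passed, and the part of a change in cell makeup in the values above was not tested.

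Genes chosen for a small p agree between the dye orientations by that choice, so the share over all probes was set beside them. The difference had the same sign on the Cy5 arrays and on the dye swaps for 33.3% of all tested probes, and across probes the orientations correlated at -0.35, with probes sharing the arrays. For CG9360 the orientations gave -1.16 and -1.60, for CG6908 -1.94 and -0.85, and for Tie 0.72 and 1.15. With the swaps not turned, 1046 probes (23.5%) had an unadjusted p under 0.05, and 2 passed the adjusted threshold (0.0449%), neither of them among the 3. These were flw, a protein phosphatase gene, at 1.01 (SE 0.15, limma adjusted p = 0.0433), and Tektin-C, a gene of sperm microtubules, at -1.15 (SE 0.16, limma adjusted p = 0.0433). Probes of the same gene agreed poorly. Over 143 genes with a pair of tested probes the differences correlated at 0.24, and only 48.3% had the same sign. The median gap within a pair, 0.19, was larger than the median size of a difference, 0.13. With centring alone 61.5% had the same sign and the correlation was 0.26, and with row and column correction these were 48.3% and 0.079.

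**Figure D5:**
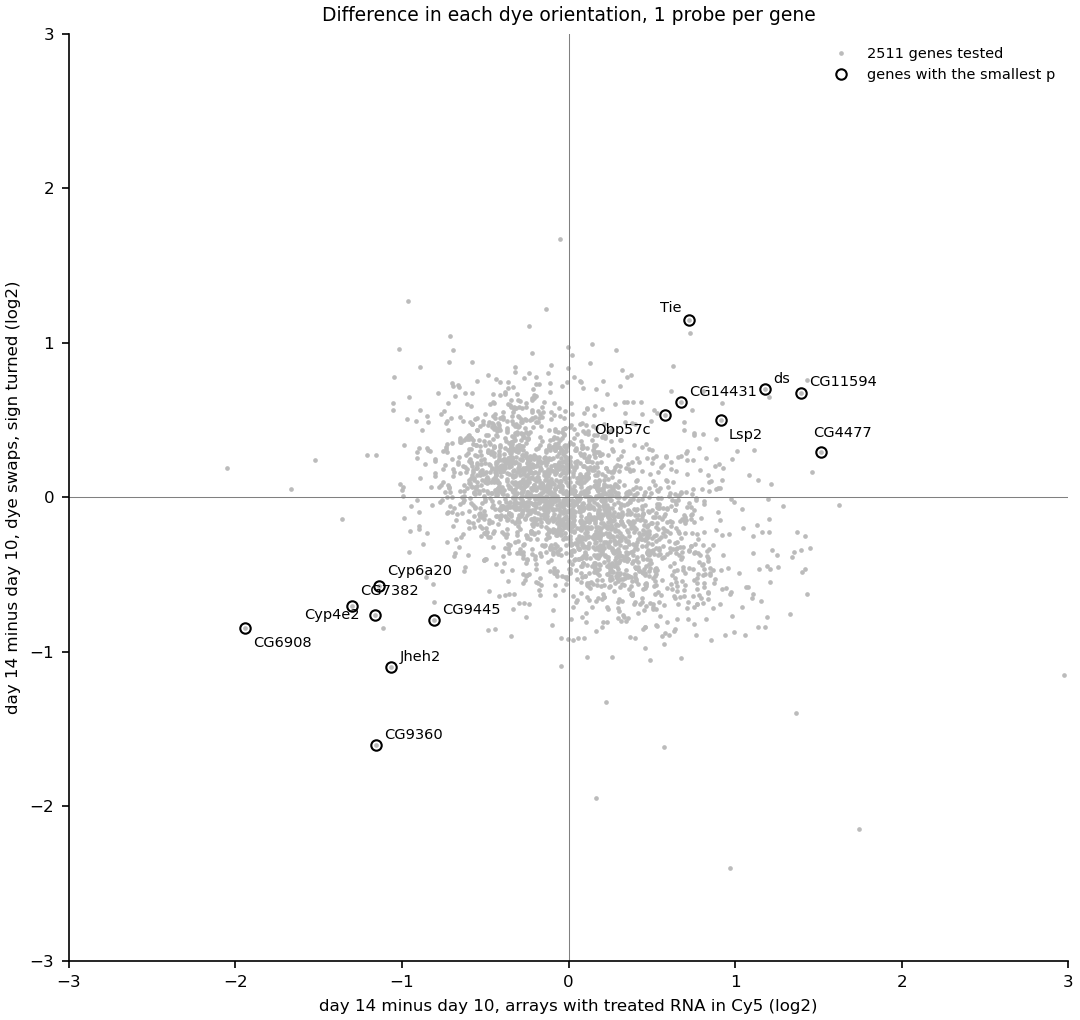
Day-14 minus day-10 difference of log2 ratios on arrays with treated RNA in Cy5 (horizontal axis) and on the dye swaps after turning (vertical axis), for 1 probe of each of the 2511 tested genes. Most genes scatter along the falling diagonal, and the circled genes with the smallest p lie in the quadrants of equal sign, CG9360 at -1.16 and -1.60.

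How far the day-14 ratios reached is bounded by what was measured. Of probes with at least 3 values at day 10, 1746 had no value on any day-14 array, and 3078 genes measured at day 10 had no tested probe. CG14402 and all but 1 of the Cyp6a8 probes were among those with no day-14 value. For all of these no difference between the days can be given.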

How the data were processed

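RNA from heads of males was hybridised to spotted cDNA arrays of 13824 probes, each printed as 2 adjacent spots. The authors quantified spots in GenePix Pro 6.0 and normalized ratios in Acuity 4.0, per the labels' design text. By that text they ignored spots under 100 intensity units and under 2 times the background, and asked for under 3% saturated pixels and a uniformity of at least 0.6; the text ends within its list of filters. The deposited values are log2 ratios; the base was taken from the values, since as linear ratios 100% of the 71 lowest were multiples of 0.001, within 0.05 of that step. The numerator is not given in the sources used here.

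From these values, 5 spots at the software ceiling were set to missing, spots of a probe were averaged, each array was centred on its median, and the median of each of 48 print blocks was subtracted. Dye swaps were then turned in sign. limma 3.58.1 in R 4.3.3 (lmFit, eBayes) fitted a mean per day and 1 dye term to the 8 arrays, 2-sided, with Benjamini-Hochberg adjustment over 4451 probes. A fitted difference can depart from the difference of plain means where arrays lack a value. The third group, known to spread less, was kept out of the shared spread. Genes came from the platform annotation: 7558 probes had 1 gene, 51 several and 6215 none, and gene IDs gave 7447 of the 7558 a current symbol. For lists, the probe of a gene with most values was used, then the lowest number.

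The named genes are the 8 probes with 1 gene and the smallest p in each direction, the 2 smallest p of each list with at least 4 tested genes, and the genes named at day 10 in an earlier report; others are said to be chosen after their values were seen. The members and lists were chosen with earlier results of these data known. The fit was tested on simulated data before use. It recovered 64% of 100 probes changed by 1 log2 and 95% of 100 changed by 2 log2, with 9 false calls. The simulated arrays were drawn independently apart from a small dye effect. They did not carry the correlations seen between the real arrays, so the fit was not tested under those. At most 0.201% of values were identical between any 2 arrays. Precision is limited by how many arrays there are. Alternatives covered position correction, centring, the dye term, turning of swaps, the arrays and weights used, the spread, the minimum of values, the replicate block and leaving out each array. An exact test of 4 arrays against 4 cannot go below 0.0286, so single values were tested only in the fit across all probes. No sequence is given, since the tables used here held none.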

Additional observations from a re-analysis of the deposited data

Results flagged for a closer look

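The day-14 minus day-10 difference passed the limma test itself for CG9360 at -1.38, for the first unnamed probe at -1.38 and for the second at -1.36, as described above.

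Among 109 groups of 4 arrays looked at for the named genes, 5 held an array far from the other 3. Chance flags about 1 in 20 groups, so this number is no more than chance gives. The second Jheh2 probe stood at 1.36 on day-10 replicate 2, against 0.42 to 0.46 on the others. GstE3 stood at 0.20 on day-14 replicate 2, against -0.31 to -0.23. Obp19d stood at 0.061 on day-10 replicate 2, against -0.82 to -0.75. The eye kinase gene inaC stood at 0.43 on day-10 replicate 2, against 0.12 to 0.17, and Pdp1 at 1.72 on day-14 replicate 1, against -0.0045 to 0.28. Day-10 replicate 2 accounts for 3 of the 5.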

How the results depend on the processing

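Beside the 3 probes called as reported, limma called 2 with centring alone, 2 without a dye term and 4 with values as deposited, where the median of all probes was -0.26. It called 1 with row and column correction, 5 with a dye term per day, 8 with all 12 arrays, 12 with array weights and 0 after scaling the arrays to one spread. All 8 calls with 12 arrays were lower at day 14 and added CG6908, Cyp4e2, Cyp6a20, CG7382 and Jheh2 to the 3. Some alternatives also called probes as higher, none of them with a single listed gene. These stood at 1.27 with a dye term per day, at 1.09 and 1.07 with array weights, and at 1.88 without day-10 replicate 3. In fits without 1 array the count ranged from 0 to 4: it was 0 without day-14 replicate 2, 3 or 4 or day-10 replicate 2 or 4, and 1 without day-14 replicate 1. Other thresholds on values, a weight per day and a robust fit gave 2 or 3, and averaging the probes of a gene left 1 gene. CG9360 passed in 14 of 23 alternatives. The cause was not tested in any of these.

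The days share replicate numbers, but the labels do not say whether the numbers pair the samples. Deviations of same-numbered arrays from their group means correlated at -0.060, 0.20, 0.20 and -0.10 across probes. Those of arrays with different numbers correlated at -0.25 to 0.14, so a pairing stays unknown. With the replicate block 0 probes passed, 143 had an unadjusted p under 0.05, and CG9360 had an adjusted p of 0.0898.

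With dye swaps not turned, the sign was reversed for CG9360 at 0.22, the first unnamed probe at 0.23, the second Jheh2 probe at 0.016, Tie at -0.024, ds at -0.074, CG2065 at 0.061, GstD1 at 0.52, Obp19d at -0.25, Obp19c at 0.32, Or33a at 0.22, RpL23 at 0.27, RpL29 at -0.040, eRF3 at 0.38, Pgi at 0.13 and yip2 at -0.42. It was likewise reversed for DnaJ-1 at 0.12, CCT1 at -0.26, Cnx99A at 0.19, 5-HT2A at -0.31, t at 0.48, TpnC73F at 0.73, Act88F at -0.12, betaNACtes6 at -0.21, Pdp1 at -0.11, ref(2)P at 0.48, sug at -0.68, Cyp313a1 at -0.091, Cyp4p1 at 0.034, Cyp4d21 at -0.43 and Cyp4ad1 at 0.40. Values as deposited turned Ugt301D1 to -0.076, Gr61a to -0.29, RpL29 to -0.048, mRpS17 to -0.048, yip2 to -0.16, CCT1 to -0.047, Act88F to -0.056, Mal-A2 to -0.059, boly to -0.062 and jet to -0.12. Row and column correction turned Gr61a to -0.012, Prosbeta7 to 0.045, AstC to 0.069, jet to -0.064 and Prx3 to 0.045. Centring alone turned Gr61a to -0.0097, a common spread turned yip2 to -0.10 and Cyp313a1 to -0.00032, and array weights turned yip2 to -0.077. In fits without 1 array, Ugt37E1 ranged from -0.077 (without day-14 replicate 2) to 1.04, Gr61a from -0.014 (without day-14 replicate 3) to 0.28, Jhbp14 from -0.059 (without day-10 replicate 1) to 0.80 and yip2 from -0.033 (without day-10 replicate 4; -0.015 without day-14 replicate 4) to 0.22. The other genes refitted under every alternative kept their sign in those that gave a value. Further tested probes of named genes were refitted only with the swaps not turned. Of these, Cnx99A turned from 0.24 to -0.091, Obp19d from 0.21 to -0.62 and a Vajk3 probe from 0.089 to -0.20. Genes given in the text by their list value alone were likewise refitted only with the swaps not turned. The sign was then reversed for GstD9 at 0.088, GstD4 at 0.025, Pdh at 0.086, Adh at 0.15, Hsp68 at 0.59, Hsp26 at 0.34, trpl at 0.084, inaD at -0.11, rdgA at -0.20, Arr1 at 0.12, Gs1 at 0.21, GluClalpha at 0.42, alrm at -0.055, Nrg at -0.16, moody at 0.68, Miox at 0.14, Apoltp at 0.21, cry at -0.024 and per at -0.22. The cause of the turns was not tested.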
